A study of Mus musculus with 4 samples.

Results

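The tissue kallikrein Klk1 and 9 of its mouse-specific relatives, Klk1b3, Klk1b4, Klk1b5, Klk1b9, Klk1b16, Klk1b21, Klk1b22, Klk1b24 and Klk1b26, were examined in salivary glands (SGs) with and without Myd88. The probes were those whose gene name in the scanner output equals one of these symbols, 11 of 55681 probes on the array, with 2 for Klk1b26 and 1 for each of the other genes. Gene expression was measured on 4 one-colour Agilent whole mouse genome arrays, 2 labelled Myd88-null (Myd88-/-) and 2 labelled wild type (Myd88+/+). All mice are labelled as C57/BL6 females 10 weeks of age, and the RNA as coming from submandibular and sublingual glands. The study's text names submandibular glands alone as the tissue on the arrays, and which of the 2 descriptions holds was not settled here. Both genotypes were bred from heterozygous parents, and the sources used here name no tissue-specific deletion. The study's legends give n = 3 for each genotype, whereas 2 arrays per genotype were analysed here. No label says whether 1 array is 1 animal or a pool, so the spread between arrays may be partly technical.

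Glandular kallikreins are secreted serine proteases, and in rodents the Klk1b genes arose by local duplication of Klk1. In the mouse submandibular gland they are stored in the granules of the granular convoluted tubule, a duct segment that is larger in males and responds to androgens, together with epidermal growth factor (EGF) and renin. Tissue kallikrein releases kinins from kininogen. Several relatives are named for the growth factor or hormone precursor with which they were found.

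Each value below is the log2 of a probe's background-corrected signal minus the 75th percentile of its array, so a value of 1 is a 2-fold brighter spot than that percentile. Differences are Myd88-/- minus Myd88+/+. Values of different probes are not comparable as amounts of transcript, because probes bind with unlike strength. The 75th percentile was 237 to 321 intensity units, and 52.2% to 74.1% of probes were well above background. That share differed more within each genotype than between the genotypes. All 11 kallikrein probes were well above background on the 4 arrays, and none was saturated.

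The deleted gene was read first. The Myd88 probe gave 1.51 and 1.41 on the Myd88-/- arrays and 1.15 and 1.07 on the Myd88+/+ arrays. It was thus not lower in the null mice (log2 difference 0.35 ± 0.11 SE, adjusted p = 0.331 in limma). The sources do not say whether it lies in the deleted part, so it checks nothing about the labels. Xist, the female-specific RNA of X inactivation, was above background on the 4 arrays, and the Y-linked Ddx3y, Kdm5d and Eif2s3y were above it on none. For Uty, also Y-linked, 1 probe was above background on 2 arrays and the other on none.

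The kallikrein probes lie in 249 kb of chromosome 7 (51235681 to 51484325, mm9), within the transcripts of their genes. Because the genes are near copies, a probe can bind the transcript of a relative, and the probe sequences show how far this could reach. The 3 pairs below, 5′ to 3′ as on the array, have the longest common runs among the 7 member probes without AATAAA, the polyadenylation signal found near transcript ends, and capitals mark the run that each pair has in common.
Klk1, base 520: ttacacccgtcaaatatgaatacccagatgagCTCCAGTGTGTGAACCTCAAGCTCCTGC
Klk1b4, base 487: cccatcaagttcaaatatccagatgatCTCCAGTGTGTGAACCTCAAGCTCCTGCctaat
Klk1b22, base 575: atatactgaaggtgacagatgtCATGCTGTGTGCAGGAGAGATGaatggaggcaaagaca
Klk1b3, base 605: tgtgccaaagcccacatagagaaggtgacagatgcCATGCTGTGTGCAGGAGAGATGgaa
Klk1b26, base 693: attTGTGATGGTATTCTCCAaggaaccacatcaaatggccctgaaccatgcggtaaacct
Klk1b24, base 662: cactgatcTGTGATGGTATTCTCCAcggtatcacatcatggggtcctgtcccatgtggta
The base is the position in the transcript where the probe starts. Klk1 and Klk1b4 have 28 bases in common and are 87.3% identical over the 55 bases that align without gaps. Both probes span 156 bases of the genome for 60 bases of sequence (chr7:51484170-51484325 for Klk1, chr7:51466302-51466457 for Klk1b4), as a probe across an exon junction does. Klk1b22 (chr7:51371648-51371707) and Klk1b3 (chr7:51457064-51457122) have 22 bases in common, and the Klk1b26 probe at base 693 (chr7:51272156-51272215) has 17 in common with Klk1b24 (chr7:51447637-51447696). The second Klk1b26 probe, at base 809 (chr7:51272272-51272331), is 90.7% identical to the Klk1b5 probe over 54 bases and 89.7% identical to the Klk1b16 probe over 58. How much each probe binds its relatives was not tested, so values of single Klk1b genes are uncertain.

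Comparison of the genotypes asked whether loss of this adaptor of Toll-like receptor signalling changed the kallikreins. It showed no kallikrein that rose or fell. Of the 11 probes, 0 passed an adjusted p of 0.05 in limma, against 0% of the 31016 probes tested, where the smallest adjusted p was 0.262. Without adjustment, 0 of 11 had a p under 0.05, against 14.3% of all probes (8.36% higher and 5.92% lower). No mean differed by over 2-fold, against 4.54% of all probes. Of the differences, 4 were positive and 7 negative, from -0.82 to 0.30, with a median of -0.06 beside 0.06 over all probes tested. The sign of this median rests on single arrays: it was -0.20 without Myd88+/+ array 1, 0.07 without Myd88+/+ array 2 and 0.02 without Myd88-/- array 2. For 9 of the 11 probes, the 2 arrays of one genotype lay farther apart than the genotype means. Single arrays vary more than means of 2, and the share of all probes with such a gap was not computed. In bulk tissue, fewer tubule cells and less RNA per cell cannot be told apart. With 2 arrays against 2, an exact two-sided permutation test cannot go below p = 0.333.

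Klk1 itself, the kininogen-cleaving tissue kallikrein, gave 10.15 and 10.12 on the Myd88-/- arrays and 10.00 and 10.16 on the Myd88+/+ arrays. The genotypes overlapped, and its lowest and highest arrays were both wild type. The log2 difference was 0.05 ± 0.12 (SE, n = 2 per genotype), with a 95% interval of -0.29 to 0.39 and an adjusted p of 0.875 in limma. This interval runs from 1.22-fold lower to 1.31-fold higher in the null mice. The sign of the difference depends on the scaling, and it was -0.19 after quantile normalization.

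A pair of members that differ in activity came next. Klk1b3, an active protease, gave 9.92 and 9.92 on the Myd88-/- arrays and 9.73 and 9.85 on the Myd88+/+ arrays. Klk1b4, which lacks protease activity, gave 9.19 and 9.04 against 9.03 and 9.32. Klk1b3 did not overlap between the genotypes, while Klk1b4 did. The log2 differences were 0.13 ± 0.11 (SE) for Klk1b3 and -0.06 ± 0.16 (SE) for Klk1b4, with adjusted p of 0.647 and 0.902 in limma. Klk1b3 turned to -0.15 after quantile normalization and -0.03 after cyclic loess.

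The EGF-binding proteins are Klk1b9, Klk1b22 and Klk1b26, the last of which also cleaves prorenin. Klk1b9 gave 4.50 and 4.15 on the Myd88-/- arrays and 4.50 and 5.34 on the Myd88+/+ arrays, with Myd88+/+ array 2 standing above the others. Klk1b22 gave 7.92 and 7.76 against 7.81 and 8.17, in the same order but over a narrower range. The log2 difference was -0.60 for Klk1b9 (95% interval -1.60 to 0.41, adjusted p = 0.508 in limma) and -0.15 for Klk1b22 (-0.66 to 0.36, adjusted p = 0.740). Neither passed the test.

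The Klk1b26 probes gave unlike answers. The probe at base 693 read 5.97 and 4.98 on the Myd88-/- arrays and 5.87 and 6.74 on the Myd88+/+ arrays, a log2 difference of -0.82 ± 0.49 (SE; 95% interval -2.23 to 0.59, adjusted p = 0.515 in limma). The probe at base 809 read 9.59 and 9.58 against 9.28 and 9.55, a difference of 0.17 ± 0.14 (SE; -0.24 to 0.58, adjusted p = 0.639). The first was lowest on Myd88-/- array 2 and highest on Myd88+/+ array 2, whereas the second was highest on the null arrays. No single value therefore stands for Klk1b26 here. The probe at base 809 is the one whose sequence is close to those of Klk1b5 and Klk1b16.

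Klk1b16, known as gamma-renin, gave 5.73 and 4.82 on the Myd88-/- arrays and 5.64 and 6.40 on the Myd88+/+ arrays. The gap between the 2 null arrays, 0.91, exceeded the genotype difference of -0.75 ± 0.45 (SE; 95% interval -2.03 to 0.54, adjusted p = 0.517 in limma). Leaving out 1 array moved it between -1.20 and -0.29, both by leaving out a null array. Klk1b5 gave 9.88 and 9.90 against 9.53 and 9.65. It was the member with the smallest p, at a difference of 0.30 ± 0.11 (SE; -0.02 to 0.62), 1.23-fold, with an adjusted p of 0.366. Both of its null arrays lay above both wild-type arrays. Over 18 alternative settings its adjusted p ran from 0.092 to 1, and quantile normalization brought the difference to 0.04. The other 2 trypsin-like members moved little, with Klk1b21 at 7.77 and 7.57 against 7.63 and 8.00 (difference -0.14, adjusted p = 0.766) and Klk1b24 at 9.44 and 9.31 against 9.30 and 9.54 (-0.05, adjusted p = 0.909).

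**Figure D1:**
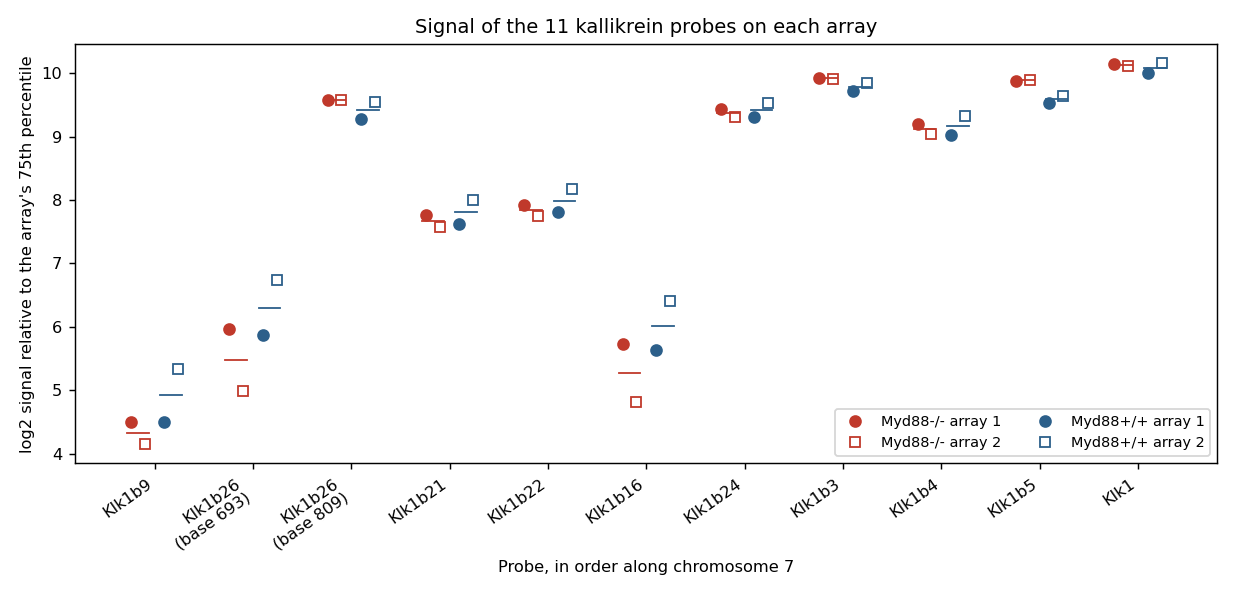
Log2 signal relative to the array's 75th percentile (vertical axis) of the 11 kallikrein probes, in order along chromosome 7. Each point is 1 array, red for Myd88-/- and blue for Myd88+/+, filled for array 1 and open for array 2, and the short lines are the means of 2 arrays. Klk1b9, Klk1b16 and the Klk1b26 probe at base 693 spread over 1.20 to 1.75 log2 units, with the open red square lowest and the open blue square highest.

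Of the 11 probes, 3 did not overlap between the genotypes and all 3 were higher in Myd88-/- mice (Klk1b3, Klk1b5 and Klk1b26 at base 809). Among all probes tested, 49.5% did not overlap, 31.6% higher and 17.8% lower, so 3 of 11 is no more than the background share. Along the cluster, no run of neighbouring genes had intervals on one side of 0.

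**Figure D2:**
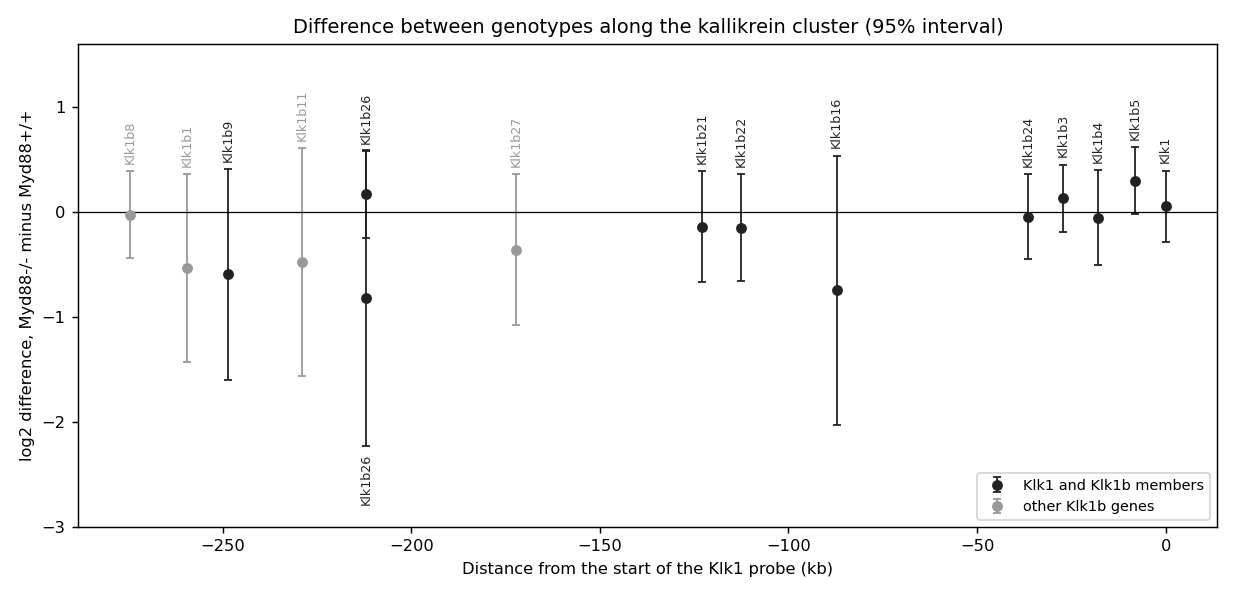
Log2 difference of Myd88-/- minus Myd88+/+ (vertical axis) of each probe against its distance in kb from the start of the Klk1 probe (horizontal axis). Points are fitted differences over 2 arrays per genotype and bars are 95% intervals, black for the members and grey for the other 4 Klk1b genes on the array. All intervals include 0, and the widest is that of the Klk1b26 probe at base 693, from -2.23 to 0.59.

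The spread between arrays was uneven among the kallikreins. For 3 probes, Klk1b9, Klk1b16 and Klk1b26 at base 693, the highest and lowest arrays lay 1.20, 1.58 and 1.75 log2 units apart, or 2.29-, 3.0- and 3.37-fold. Among the 1821 probes of a similar mean signal (4 to 6), the median range was 0.28 and the 90th percentile 0.71. Only 2.09%, 1.32% and 1.21% of them had a range at least as wide as Klk1b9, Klk1b16 and Klk1b26 at base 693. The other 8 probes were brighter and ranged over 0.16 to 0.43. Of these, 6 had a mean over 9 and ranged over 0.16 to 0.36, where the median range of 67 probes was 0.38. Among 239 probes with a mean of 7.5 to 9, 20.1% and 20.5% ranged at least as widely as Klk1b21 and Klk1b22. For the 8 probes together, the 95% intervals of the genotype difference reached at most 1.59-fold in either direction. They were grouped by their narrow range on these same arrays, which also narrows the intervals. Under 6 ways of correcting and scaling the signals, the 3 wide ranges were never under 1.20, 1.57 and 1.75. The ranges of the 8 ran from 0.07 (Klk1b5, quantile normalization) to 1.17 (Klk1b21, median scaling).

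**Figure D3:**
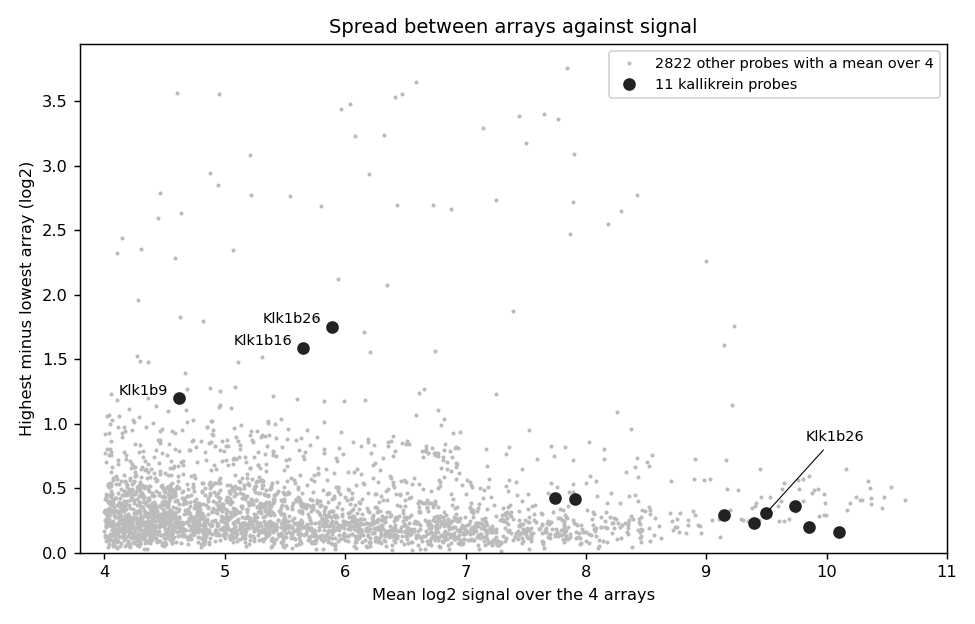
Difference between the highest and the lowest of the 4 arrays (vertical axis, log2) against the mean log2 signal (horizontal axis) for the 11 kallikrein probes (black) and the 2822 other probes tested with a mean over 4 (grey). The 3 named probes at the left lie above 1 log2 unit, and the probe of Klk1b26 at base 809, at the right, lies at 0.31.

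An order of the arrays recurred among some of the members. For 5 of 11 probes (Klk1b9, Klk1b16, Klk1b21, Klk1b22 and Klk1b26 at base 693) Myd88-/- array 2 was lowest and Myd88+/+ array 2 highest, an order seen in 7.22% of all probes tested. The members share a tissue sample on each array and have similar sequences, so they are not independent. Averaged over the 11 probes and centred on each probe's mean, Myd88-/- arrays 1 and 2 stood at 0.05 and -0.22 and Myd88+/+ arrays 1 and 2 at -0.11 and 0.29. The arrays with negative means were also those where more of the whole array passed the background flag. The passing share reached 68.4% on Myd88-/- array 2 and 74.1% on Myd88+/+ array 1. It reached only 52.2% on Myd88-/- array 1 and 55.1% on Myd88+/+ array 2. A link between this share and the order was not tested. For 3 other probes (Klk1b3, Klk1b5 and Klk1b26 at base 809) a Myd88-/- array was highest, and for 6 of 11 Myd88+/+ array 1 was lowest. The shares of all probes for these 2 counts were not computed. The count with the first order depends on the scaling, which shifts the probes of an array together. It was 7 with the percentile over detected probes (6.76% of all probes), 7 with normexp (6.85%), 8 with cyclic loess (10.9%), 9 with quantile normalization (12.8%) and 7 with median scaling (26.4%).

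Other Klk1b genes on the array are Klk1b1, Klk1b8, Klk1b11 and Klk1b27, and 0 of these 4 passed the test in either direction. Klk1b11, whose probe is spotted 10 times, gave 6.06 and 5.45 on the Myd88-/- arrays and 5.84 and 6.62 on the Myd88+/+ arrays. The SD between its spots on 1 array was 0.02 to 0.03, which covers spot error only, not labelling, hybridization or animals. Klk1b27 gave 3.49 and 3.10 against 3.41 and 3.90, and both genes have the array order of Klk1b16. Klk1b8 was nearly even, at 9.33 and 9.23 against 9.17 and 9.44. Klk1b1 had another order, at -2.72 and -2.62 against -2.54 and -1.73, and was the only 1 of the 4 without overlap (log2 difference -0.54, adjusted p = 0.505). Of the 12 more distant kallikrein-related peptidases Klk4 to Klk15, 6 were bright enough to test and 0 passed.

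Among other products of the tubule, Egf had the array order of Klk1b16, in a narrower range, and the renin probes did not. Egf gave 3.35 and 3.24 on the Myd88-/- arrays and 3.35 and 3.66 on the Myd88+/+ arrays (log2 difference -0.21, adjusted p = 0.598 in limma). Myd88+/+ array 2 was thus the highest, and Myd88-/- array 1 and Myd88+/+ array 1 were level. Ren1 gave -2.64 and -2.21 on the Myd88-/- arrays and -2.46 and -2.74 on the Myd88+/+ arrays, highest where the wide-ranging kallikreins were lowest (difference 0.18, adjusted p = 0.748). Ren2 gave -1.64 and -1.77 against -1.93 and -1.65 (0.09, adjusted p = 0.829). Both renin probes were dim, with negative values on every array, and the Ren2 probe has no listed genome position. What the Ren2 probe binds was not tested. The renin probes therefore cannot show whether tubule products depart from the kallikrein order.

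Crisp1 and Crisp3, cysteine-rich secretory proteins that androgens raise in this gland, had the largest differences among the tested tubule products. Crisp3 gave 6.88 and 6.33 on the Myd88-/- arrays and 8.16 and 8.20 on the Myd88+/+ arrays, and Crisp1 gave 4.20 and 2.43 against 6.0 and 5.78. Both were lower in Myd88-/- mice without overlap, as were 17.8% of all probes tested. The log2 differences were -1.57 ± 0.23 (SE) for Crisp3 and -2.57 ± 0.66 (SE) for Crisp1, with unadjusted p under 0.05 and adjusted p of 0.262 and 0.291 in limma. Of the 6 listed tubule products, 5 were tested, with a list median of -0.21. At an unadjusted p under 0.05, 0 were higher and these 2 lower, against 8.36% and 5.92% of all probes tested. Tgfa was too dim to test. Myd88-/- array 2 was the lowest for both genes, as it was for the wide-ranging kallikreins and for 17% of all probes tested.

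**Figure D4:**
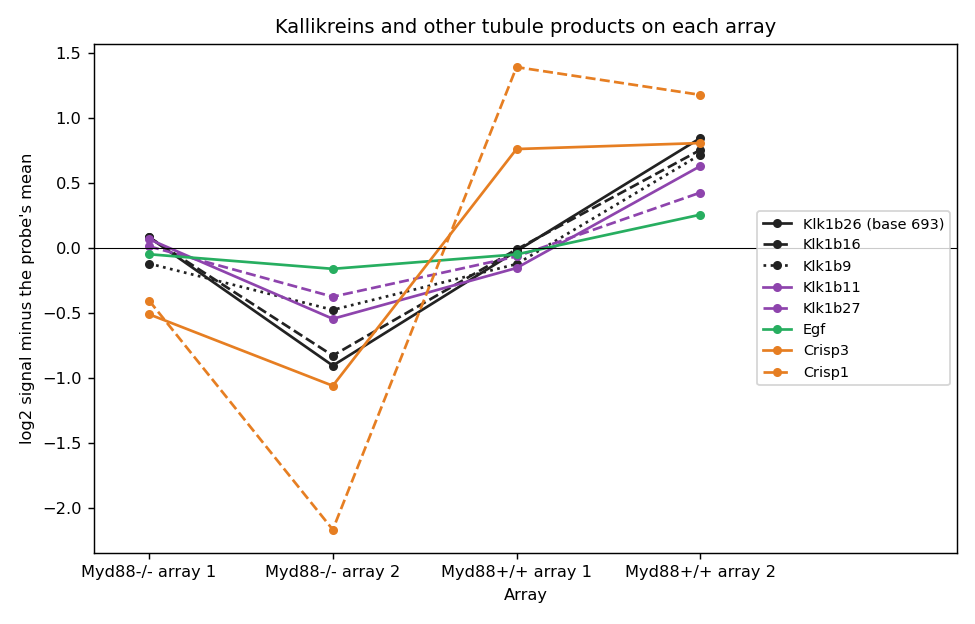
Log2 signal minus the probe's own mean (vertical axis) on each of the 4 arrays for 3 kallikrein probes (black), 2 other Klk1b genes (purple), Egf (green) and Crisp3 and Crisp1 (orange). Lines only join the values of a probe, since arrays have no order. The kallikreins drawn here and Egf peak on Myd88+/+ array 2, whereas Crisp3 and Crisp1 are high on both Myd88+/+ arrays.

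Partners of the kallikreins in kinin signalling were read from 10 genes, of which 6 could be tested. At an unadjusted p under 0.05, 1 of these was higher and 3 lower in Myd88-/- mice, against 8.36% and 5.92% of all probes tested. The adjusted threshold was passed by 0 in limma. The list median was -0.69. Klkb1, plasma prekallikrein, gave 1.04 and 0.92 on the Myd88-/- arrays and 0.08 and 0.16 on the Myd88+/+ arrays, a log2 difference of 0.86 ± 0.11 (SE, adjusted p = 0.262). Kng1, which encodes the kininogen substrate, gave -1.45 and -0.94 against 0.54 and 0.65, a difference of -1.79 ± 0.22 (SE, adjusted p = 0.262). In both genes the arrays of the genotypes did not overlap at these probes, as for 49.5% of all probes tested. Another Kng1 probe was above background on no array and was not tested. Kng2, a second kininogen gene, and Mme, neprilysin, which degrades kinins, had differences of -1.67 and -0.76 (adjusted p of 0.297 and 0.276). These shrank to -0.54 and -0.33 with normexp background correction. Kng2 was dim, at -4.36 and -3.17 against -2.07 and -2.13. It was above background on 3 of the 4 arrays, and a filter that required all 4 dropped it. Ace and Cpm, other kinin-degrading enzymes, did not pass, at -0.16 and -0.62. The kinin receptors Bdkrb1 and Bdkrb2 were above background on no array.

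Receptors and hormone-related genes were read in the same way. Of 7 growth factor and protease-activated receptors, 5 were tested and 1, the thrombin receptor F2r, was lower at an unadjusted p under 0.05 (log2 difference -0.46, adjusted p = 0.313 in limma). Egfr, the EGF receptor, differed by 0.05 without passing. Of 7 hormone receptors, steroid enzymes and glucocorticoid targets, all tested, 1 passed at that threshold, the glucocorticoid receptor Nr3c1, at -0.49 (adjusted p = 0.288). With 14.3% of all probes tested passing it in either direction, a count of 1 in lists this short does not stand out. In the second list, 4 genes were higher without overlap and 1 lower, against 31.6% and 17.8% of all probes tested. Srd5a1, which makes dihydrotestosterone, differed by 0.05 (adjusted p = 0.915).

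Cell type markers were read on the same arrays, and their part in the kallikrein values was not tested. Sums are of linear signals, in multiples of the array's 75th percentile. The tubule markers Egf and Ren1, of which 0 of 2 passed, summed to 10.4 and 9.67 on the Myd88-/- arrays and 10.4 and 12.8 on the Myd88+/+ arrays. Duct markers (2 of 6 tested higher at an unadjusted p under 0.05, Ascl3 and Scnn1a) summed to 36.1 and 31.4 against 23.4 and 27.6. Krt19 and Cftr went the other way without passing (log2 differences -0.28 and -0.18), Krt19 without overlap. Both were dimmer than Ascl3 and Scnn1a on every array, so this sum hardly follows them. Submandibular acinar markers (3 of 6 higher, Pip, Car6 and Prol1) summed to 4090 and 4200 against 3141 and 3298. These 3 were the brightest on every array, so the sum mostly follows them. Bhlha15 overlapped (log2 difference 0.03), and Aqp5 and Lpo were higher without passing (0.17 and 0.44). Of all probes tested, 8.36% were higher at that threshold. Sublingual and demilune markers (3 of 4 higher, Dcpp1, Dcpp2 and Dcpp3) summed to 4958 and 5050 against 3974 and 4240. Muc19, the remaining marker, went the other way without passing (log2 difference -0.13, adjusted p = 0.694 in limma), and its dimmer probe gave -0.31. It was dimmer than each Dcpp probe on every array, so this sum mostly follows the Dcpp genes. After quantile normalization or cyclic loess, 0 of the acinar and 0 of the sublingual markers passed. The tubule sum is nearly all Egf, and the dim Ren1 probe runs another way.

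Markers of lymphocytes, muscle and fat were counted at an unadjusted p under 0.05, where 5.92% of all probes tested were lower. After adjustment 0 passed in limma. B cell markers (3 of 3 tested lower) summed to 1.26 and 1.07 against 11.9 and 6.16, with Ms4a1 not above background on the null arrays. T cell markers (3 of 5 lower) summed to 4.08 and 4.93 against 13.6 and 8.94, while Cd3e overlapped (1.73 and 2.00 against 1.87 and 1.97). Skeletal muscle markers (5 of 5 tested lower) summed to 2.30 and 2.22 against 18.8 and 108, with the highest sum on Myd88+/+ array 2. On that array 8 of the 11 kallikrein probes and 19.5% of all probes tested were highest, and a link was not tested. Adipocyte markers (2 of 4 tested lower) summed to 140 and 221 against 302 and 308.

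The promoters of most members have a short motif in common. In the 250 bases before the RefSeq start site (GRCm38.p6), TTTAAA, which reads the same on both strands, was present in 8 of 10 members, against 12.1% of 32851 mouse promoters. The windows below are the last 60 bases before the start of 5 members, plus strand, with TTTAAA in capitals, and were chosen to set Klk1b26 and Klk1b16, whose probes ranged widely, beside 3 others.
Klk1b26, chr7:44012618-44012677: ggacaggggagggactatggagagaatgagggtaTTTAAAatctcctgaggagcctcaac
Klk1b16, chr7:44137230-44137289: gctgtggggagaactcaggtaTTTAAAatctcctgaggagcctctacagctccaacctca
Klk1b9, chr7:43976001-43976060: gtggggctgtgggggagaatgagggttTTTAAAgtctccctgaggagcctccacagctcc
Klk1b22, chr7:44112613-44112672: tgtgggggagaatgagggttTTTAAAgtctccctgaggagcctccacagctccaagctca
Klk1b5, chr7:44216414-44216473: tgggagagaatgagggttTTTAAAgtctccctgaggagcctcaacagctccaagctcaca
Klk1b26 and Klk1b16 hold the longer TATTTAAAA (either strand, overlapping TTTAAA), found in 0.694% of all promoters and in no other member. Outside the members, Klk1b11 also holds it, and Klk1b1, Klk1b8, Klk1b11 and Klk1b27 all hold TTTAAA. The longer motif was chosen after the sequences had been read. The probe of Klk1b9, which lacks it, ranged over 1.20 log2 units, against 1.58 and 1.75 for Klk1b16 and Klk1b26 at base 693. Klk1 and Klk1b21 hold no TTTAAA in this window. The Klk1b21 window ends in bases that lie just before TTTAAA in the Klk1b24 window, so the count depends on where start sites are annotated. In the members that hold it, TTTAAA begins 13 to 48 bases before the start site. The hormone response element half-site AGAACA (or TGTTCT on the other strand) was found in 2 of 10 members, Klk1b24 and Klk1b3, against 16.1% of all promoters. A match describes letters only.

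Genes whose array profile was closest to the mean of the 11 probes were ranked by the root mean square difference of centred log2 values over the 4 arrays, among 15261 genes. The closest 5 were Ahdc1 (0.0154), Guf1 (0.0171), Top1 (0.0172), Mark3 (0.0182) and Gcgr (0.0205). Egf stood at 0.0664. With 4 arrays and so many genes, profiles this close are a description of these arrays only.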

How the data were processed

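Cy3-labelled cRNA from SGs was hybridized to Agilent whole mouse genome arrays, and the authors read them with Agilent Feature Extraction 10.7.3.1. The deposited processed signal is an intensity after background and spatial correction, with no normalization between arrays. The deposited flags mark outlier and saturated spots and those well above background. A deposited series table was left out, since the names of its 4 columns match no label. Gene names and probe positions (mm9) are those of the array files. Promoters came from RefSeq (GRCm38.p6), where 10 of 10 members matched.

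From the files, log2 signal minus each array's 75th percentile over 59305 non-control spots was computed, outlier spots were left out and spots of a probe averaged. Testing required that over a 0.5 share of a probe's spots be flagged as well above background on the 2 arrays of either genotype. The genotypes were compared in limma 3.58.1 (R 4.3.3), and p was adjusted over 31016 probes after Benjamini and Hochberg. A listed gene stands for its brightest tested probe. List counts at an unadjusted p under 0.05 are to be read beside 8.36% higher and 5.92% lower among all probes tested. The genes named are all members, Myd88, the genes of the lists and the 5 closest profiles. Some genes of these lists are not reported here and were left out of the list counts. Members and lists were chosen with earlier results of these data known. A further 17 settings, and 1 chosen after seeing the data, are given in the closing section. The scripts were tested on simulated data. Precision is limited by having 2 arrays per genotype.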

Additional observations from a re-analysis of the deposited data

How the results depend on the processing

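No kallikrein probe passed an adjusted p of 0.05 under any of the 18 settings run, and over the 11 probes and 9 of the listed genes 335 values kept their direction and side of the threshold. In 7 further cases Crisp1, Crisp3, Klkb1 or Kng1 passed it, under normexp, median scaling or trended and robust moderation. Signs turned only for small differences. Klk1 became -0.0010 with normexp, -0.19 with quantile normalization, -0.0054 with the 75th percentile over detected probes and -0.11 with cyclic loess. Quantile normalization turned Klk1b3 to -0.15 and Klk1b26 at base 809 to -0.022, and cyclic loess turned Klk1b3 to -0.026. The median over the 11 probes was -0.20 with quantile normalization and with cyclic loess. Leaving out 1 array in turn gave -1.02 to -0.17 for Klk1b9, -1.32 to -0.33 for Klk1b26 at base 693 and -1.20 to -0.29 for Klk1b16, and -1.69 for Crisp1 and -1.07 for Kng2 without Myd88-/- arrays 2 and 1. It gave -0.030 to 0.13 for Klk1, with the lowest value without Myd88+/+ array 1. It gave -0.16 to 0.070 for Klk1b24, -0.20 to 0.091 for Klk1b4, -0.33 to 0.044 for Klk1b21 and -0.33 to 0.031 for Klk1b22, with the positive values without Myd88+/+ array 2 and, for Klk1b24 and Klk1b4, also without Myd88-/- array 2.

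At an unadjusted p under 0.05, 1 kallikrein probe was lower with normexp, and 1 was higher with the brightest probe of a gene, with trended and robust moderation and in the methods' t-test. Leaving out 1 array gave 0 to 1 lower. Among all probes, 124 passed the adjusted threshold with normexp, 496 with median scaling, 373 with trended and robust moderation and 1 in the methods' t-test. Median scaling shifted arrays of a genotype apart (median residual SD 0.504, against 0.155 in the main scaling), and limma then used 1 common spread for all probes. The unadjusted counts were 2594 higher and 1836 lower. They were 325 and 995 with median scaling, 1949 and 1964 with quantile normalization, 1911 and 2243 with the 75th percentile over detected probes, and 1879 and 2729 with cyclic loess. Without a filter 1526 were higher, and the methods' t-test gave 2540 higher and 1145 lower. Normexp gave 3666 higher and 1891 lower, and trended and robust moderation 3435 and 2079. The brightest probe of a gene gave 2190 and 1525. Leaving out 1 array gave 1162 to 1768 higher and 1063 to 2200 lower.

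Of the pathway genes, 1 was higher and 7 lower. There were 2 higher with normexp, cyclic loess, the stricter filter, trended and robust moderation and the crossed pairs, and 0 higher and 4 lower with median scaling. The methods' t-test gave 3 lower, and leaving out 1 array gave 1 to 2 higher and 3 to 6 lower. After adjustment 2 passed with normexp, 2 with median scaling and 3 with trended and robust moderation, where the main fit had 0.

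Over probes, the deviations of same-numbered arrays correlated at -0.384. No label says whether the array numbers pair the samples. The correlation cannot settle this, because it describes signals and not how the samples were handled. With the replicate number as a block, 0 kallikrein probes passed and 1341 of all probes were higher. With the crossed pairs, chosen after seeing the data, 3 kallikrein probes were lower at an unadjusted p under 0.05. Of all probes, 2325 were lower and 2878 higher in that fit.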
